A study of Mus musculus with 18 samples.

Results

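The acute phase plasma proteins described here are 10 mouse genes, Saa1, Saa2, Saa3, Saa4, Hp, Hpx, Crp, Orm1, Orm2 and Itih4, taken by symbol from gene-level RNA-seq tables of MC38 liver metastases. All 10 were found among the 22137 genes of the table of diets and among the 24778 genes of the table of hairpins, and all 10 passed the filter on low counts in both. MC38 is a mouse colon carcinoma cell line. Its cells had been injected into the spleen, from which they seed the liver, and total RNA of the liver tumours was sequenced. The table of diets holds 5 libraries labelled low-fat diet (LFD) and 5 labelled high-fat diet (HFD), all of the genotype WT. The table of hairpins holds 4 libraries labelled shCon, of the genotype shControl, and 4 labelled shYap, all from mice on the high-fat diet. The diet groups carry no hairpin label, both hairpin groups share the high-fat diet, and no library pairs a hairpin with the low-fat diet. The labels name WT hosts throughout and give neither sex nor age, nor whether a hairpin line was 1 clone, nor whether each library came from a separate mouse, so p-values measure the spread between these libraries.

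Acute phase proteins are secreted mainly by hepatocytes and change in plasma during infection, injury and tumour growth. IL-6 acts on hepatocytes through STAT3, and IL-1 and TNF act through C/EBP factors and NF-kB, so that the genes of this response tend to rise together while albumin, a negative acute phase protein, falls. In a tumour sampled from the liver, RNA of these genes can come from hepatocytes within or around the tumour, and for some of them from macrophages or other cells, so each gene is given both as CPM (counts scaled to a common library size with TMM factors) and as counts per 1000 counts of Alb, the albumin gene, in the same library.

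Each library held between 17207214 and 21309950 estimated counts. The targeted gene did not separate the hairpin labels: Yap1 stood at 77.9 ± 3.55 CPM (SD, n = 4) in shCon and at 75.9 ± 5.62 CPM (SD, n = 4) in the libraries labelled shYap, with overlapping ranges, so no direction below is read as an effect of lower Yap1. Xist, a transcript of female cells that coats the silenced X, ranged from 72.9 to 135 CPM in LFD and from 0.0505 to 0.293 CPM in HFD, so diet and the presence of female RNA cannot be told apart. In the table of hairpins Xist ranged from 0 to 0.1 CPM in shCon and from 0 to 0.203 CPM in shYap. The coefficient of biological variation was 7.3% between HFD replicates 1 and 2 and 6.37% between HFD replicates 3 and 4, against 12.7% to 24.4% for the other HFD pairs; results on the 10 genes and the calls in the lists are therefore also given with each of these pairs summed to 1 sample. Epcam, a marker of colon epithelium, stood near 1 CPM in all groups (means of 1.05, 1.01, 1.2 and 1.4 CPM in LFD, HFD, shCon and shYap), and Vil1 was below the filter, while Krt8 ranged from 19.8 to 274 CPM in the table of diets.

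The serum amyloid A genes form a cluster on chromosome 7 (GRCm38, per the files, ends as in GENCODE M21), with Saa3 at chr7:46711998-46715700, Saa4 at chr7:46727998-46732603 and Saa1 at chr7:46740497-46742980 on the minus strand and Saa2 at chr7:46751790-46754313 on the plus strand. Saa1 and Saa2 encode the inducible apolipoproteins of the acute phase, Saa3 is a further inducible form that mouse macrophages and adipocytes also make, and Saa4, in human, is the constitutive form. Their proximal promoters are shown because the members of this cluster differed most from one another in the results below. Each sequence is the 250 bases before the RefSeq start of the gene, 5′ to 3′ on the gene's strand in GRCm38.p6, with capitals marking matches to the C/EBP motif TTNNGNAA or the NF-kB motif GGNNNTTCC on either strand.
Saa1, chr7:46742981-46743230, minus strand: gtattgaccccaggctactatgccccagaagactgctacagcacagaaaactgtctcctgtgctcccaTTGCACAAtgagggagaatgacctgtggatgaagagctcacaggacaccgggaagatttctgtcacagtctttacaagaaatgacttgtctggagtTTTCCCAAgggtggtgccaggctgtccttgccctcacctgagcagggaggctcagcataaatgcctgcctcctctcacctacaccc
Saa2, chr7:46751583-46751832, plus strand: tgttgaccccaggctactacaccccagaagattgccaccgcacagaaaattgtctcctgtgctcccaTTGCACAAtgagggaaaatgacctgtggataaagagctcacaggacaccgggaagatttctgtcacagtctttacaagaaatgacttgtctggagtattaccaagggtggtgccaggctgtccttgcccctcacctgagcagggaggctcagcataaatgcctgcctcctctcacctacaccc
Saa3, chr7:46715677-46715926, minus strand: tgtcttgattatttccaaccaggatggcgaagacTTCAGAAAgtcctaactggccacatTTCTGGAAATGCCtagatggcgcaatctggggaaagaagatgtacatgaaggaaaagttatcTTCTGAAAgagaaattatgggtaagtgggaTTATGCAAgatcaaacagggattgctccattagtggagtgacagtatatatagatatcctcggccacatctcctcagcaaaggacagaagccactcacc
Saa4, chr7:46732604-46732853, minus strand: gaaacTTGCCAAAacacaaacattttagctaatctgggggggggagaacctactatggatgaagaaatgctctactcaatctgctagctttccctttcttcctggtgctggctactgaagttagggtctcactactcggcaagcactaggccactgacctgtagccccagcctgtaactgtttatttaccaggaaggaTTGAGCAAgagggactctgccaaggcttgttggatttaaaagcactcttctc
Counted from -1 at the base before the start, Saa1 had C/EBP matches at -182 and -86, Saa2 at -183 only, and Saa4 at -245 and -52. Saa3 had C/EBP matches at -216, -191, -129 and -99, and its single NF-kB match at -187 overlapped the second of these. The windows of Saa1 and Saa2, taken to 50 bases past the start, were identical at 287 of 299 aligned bases (96.0%), against 55.1% to 61.0% for every other pair of the cluster.

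The STAT3 motif TTCNNNGAA was found in 1 of the 8 members that have a RefSeq promoter entry, Itih4, at -51. Itih4 encodes a heavy chain of the inter-alpha-trypsin inhibitor family and lies at chr14:30886476-30902353 on the plus strand. Its promoter is shown for that match, in capitals.
Itih4, chr14:30886226-30886475, plus strand: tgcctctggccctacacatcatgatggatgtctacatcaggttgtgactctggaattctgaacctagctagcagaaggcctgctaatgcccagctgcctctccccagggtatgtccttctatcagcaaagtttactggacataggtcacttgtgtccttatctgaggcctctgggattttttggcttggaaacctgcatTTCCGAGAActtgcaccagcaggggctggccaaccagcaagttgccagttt
Among all 32851 RefSeq promoters of the same length, 8.3% held the STAT3 motif, 40.7% the C/EBP motif and 18.5% the NF-kB motif, on either strand. A C/EBP match was also present in the windows of Hpx, Crp, Orm2 and Alb. These matches are descriptions of letters and were not tied to binding in these tumours.

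The first question of the study's design is how metastases on a high-fat diet differ from those on a low-fat diet. RNA of the acute phase genes fell in HFD tumours together with that of other hepatocyte genes: 8 of the 10 fell, none rose, and Saa3 and Orm2 did not pass the test. The median log2 fold change of the 10 was -3.02, against -0.0018 over all 16340 genes tested, of which 21.6% fell and 19.4% rose (edgeR's quasi-likelihood test, Benjamini-Hochberg adjusted p under 0.05). The falls ran from 7.78-fold in Saa1 to 43.9-fold in Saa4, and Alb itself fell 25.2-fold, from 20282 ± 19205 CPM to 804 ± 806 CPM (SD, n = 5 each; adjusted p = 0.00509). All 24 hepatocyte markers listed fell (21 with the closest HFD pairs summed), with a median log2 fold change of -4.91, and their summed level ranged from 4439 to 51278 CPM in LFD and from 250 to 1633 CPM in HFD, with none at 0 in any library and the lowest, Cyp1a2, at 0.196 to 0.606 CPM in HFD. In bulk tissue, fewer hepatocytes and less of these RNAs per hepatocyte cannot be told apart.

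**Figure D1:**
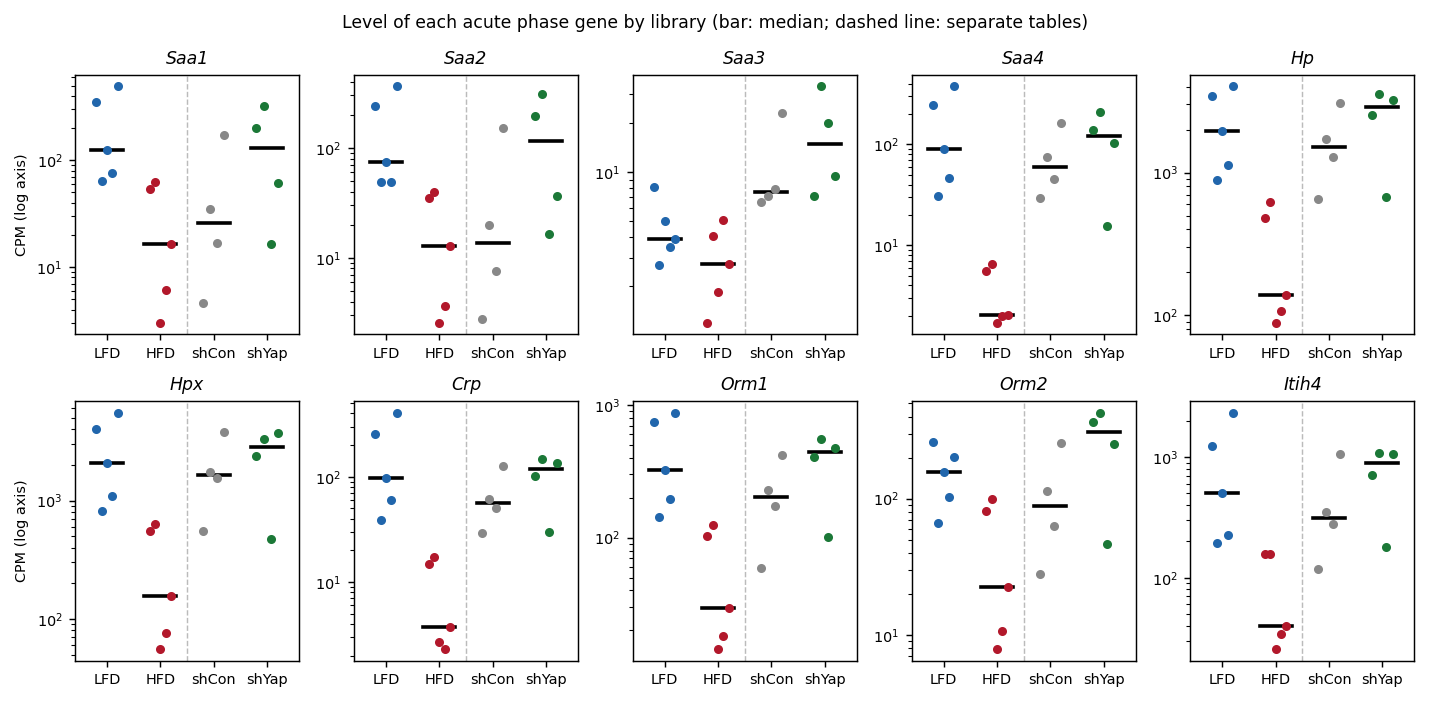
CPM of each of the 10 genes in every library (log axis), with 1 point per library and a bar at the group's median; the diet and hairpin tables, parted by the dashed line, were normalised separately. In 8 of 10 panels the LFD and HFD points do not overlap, Saa3 and Orm2 being the exceptions, while shCon and shYap overlap in all 10.

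Among the serum amyloid A genes, Saa1 stood at 349, 64.2, 125, 75.6 and 492 CPM in LFD replicates 1 to 5 and at 53.7, 62.9, 3.02, 6.14 and 16.3 CPM in HFD replicates 1 to 5. The lowest LFD library lay just above the highest HFD library, and HFD replicates 3 and 4 were far below replicates 1 and 2. The fall of Saa1 measured -2.96 ± 0.94 on the log2 scale (SE; adjusted p = 0.0298). Saa2 followed it library by library, at 240, 48.9, 74.9, 49.4 and 363 CPM in LFD and at 35.1, 39.4, 2.57, 3.67 and 12.7 CPM in HFD (log2 fold change -3.05 ± 0.92, adjusted p = 0.0243). Both calls were lost when certain libraries were left out: that of Saa1 on removal of replicate 1 or 5 of LFD (adjusted p = 0.0621 and 0.0665) or 4 or 5 of HFD (0.057 and 0.0684), and that of Saa2 on removal of replicate 1 or 5 of LFD (0.0515 and 0.0554) or 5 of HFD (0.0577). The transcripts of Saa1 and Saa2 are identical at 572 of 606 aligned bases (94.4%), with a shared run of 99 bases, so how the authors' counting divided reads between them is uncertain.

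Saa4 showed the deepest fall of the 10 genes. It stood at 246, 30.9, 89.9, 46.3 and 376 CPM in LFD and at 5.58, 6.57, 1.71, 2.01 and 2.05 CPM in HFD, which gives a log2 difference of -5.46 ± 0.85 (adjusted p = 0.00125). The groups were far apart, the highest HFD library at 6.57 CPM and the lowest LFD library at 30.9 CPM. Saa3 behaved otherwise: it was low throughout, at 8.17, 2.69, 5.01, 3.46 and 3.91 CPM in LFD and 1.2, 4.04, 1.86, 5.13 and 2.74 CPM in HFD. Its ranges overlapped and the difference of -0.63 ± 0.42 on the log2 scale did not pass (adjusted p = 0.248). General macrophage markers showed no call either (0 of 12, summed level 2321 to 4765 CPM in LFD and 2976 to 3886 CPM in HFD), while 4 of 7 Kupffer cell markers fell (3 with the closest HFD pairs summed; 150 to 371 CPM against 26.7 to 106 CPM); the part of these cells in the level of Saa3 was not tested. Of the other cell type lists, 4 of 10 fibroblast markers rose, 2 of 8 endothelial and 1 of 6 tested epithelial markers fell, and 2 of the 3 adipocyte markers tested, Adrb3 and Lipe, fell. With those pairs summed the counts were 4, 2, 0 and 1. Among all genes 19.4% rose and 21.6% fell, or 12.1% and 12.9% with those pairs summed. Nothing is read from the endothelial and epithelial counts beside these shares.

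Hp and Hpx encode haptoglobin, which binds free haemoglobin, and hemopexin, which binds free haem, and were the most abundant of the 10 per kilobase of transcript in LFD and in HFD. Hp (chr8:109575128-109579172, minus strand) stood at 3456, 891, 1949, 1137 and 4020 CPM in LFD and at 484, 627, 88.8, 107 and 139 CPM in HFD. Hpx (chr7:105591613-105600137, minus strand) stood at 4036, 815, 2079, 1091 and 5521 CPM in LFD and at 556, 639, 55.8, 76.7 and 156 CPM in HFD. Neither gene's groups overlapped, and in both HFD replicates 1 and 2 were the highest of their group and LFD replicate 2 the lowest of its own. The log2 fold changes were -2.99 ± 0.70 for Hp (adjusted p = 0.00799) and -3.19 ± 0.85 for Hpx (adjusted p = 0.0141).

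Crp encodes C-reactive protein, a pentraxin that binds phosphocholine and is only a minor acute phase reactant in mice. It stood at 253, 39.1, 98.3, 60.4 and 407 CPM in LFD and at 14.7, 17.1, 2.67, 2.31 and 3.72 CPM in HFD, with no overlap, and its log2 fold change of -4.40 ± 0.89 (adjusted p = 0.00405) was second to that of Saa4. Itih4 stood at 1225, 194, 505, 224 and 2331 CPM in LFD and at 157, 157, 25.7, 34.2 and 39.8 CPM in HFD (log2 fold change -3.44 ± 0.88, adjusted p = 0.0119). Its groups did not overlap, although LFD replicates 2 and 4 came close to HFD replicates 1 and 2.

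Orm1 and Orm2 encode orosomucoid, or alpha-1-acid glycoprotein, a carrier of drugs and lipids, and lie on either side of Orm3 on chromosome 4 (chr4:63344560-63348163 and chr4:63362449-63365878, plus strand). Orm1 stood at 740, 143, 322, 195 and 875 CPM in LFD and at 103, 125, 14.5, 18.3 and 29.3 CPM in HFD (log2 fold change -2.97 ± 0.78, adjusted p = 0.0136), with no overlap. Orm2 stood at 259, 66.2, 157, 103 and 202 CPM in LFD and at 80.7, 100, 7.86, 10.6 and 22.3 CPM in HFD. HFD replicates 1 and 2 lay within the LFD range for Orm2, and the log2 fold change of -1.83 ± 0.73 did not pass (adjusted p = 0.0709), though it did without HFD replicate 2 (0.0367), in DESeq2 (0.0141) and in limma voom (0.0234). Orm2 made up 18.8% to 34.6% of the summed counts of Orm1 and Orm2 in LFD and 35.2% to 44.5% in HFD, ranges that do not overlap. The transcripts are identical at 705 of 775 bases (91.0%), so this split too depends on the authors' counting.

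The CPM ranges of LFD and HFD did not overlap for 8 of the 10 genes, against 30.6% of all genes tested. With the closest HFD pairs summed, 5 of the 10 were called lower (12.9% of all genes in that fit), the calls of Saa1, Saa2 and Itih4 being lost (adjusted p = 0.0706, 0.067 and 0.0501). With the mean level of the hepatocyte markers as a covariate, which correlated with the diet label at r = -0.90 over the 10 libraries, none was called lower and 5 were called higher (Saa1, Hpx, Crp, Orm1 and Itih4), with a median log2 difference of 1.74. In that fit 2.68% of all genes were called higher and 1.92% lower.

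Alb fell further than 9 of the 10 acute phase genes, so that relative to Alb most of them were higher in HFD. Counts per 1000 Alb counts were higher in HFD for 9 of the 10 genes and Saa4 was the exception (exact permutation test of the log2 ratio, 2-sided, Benjamini-Hochberg adjusted over 16339 genes). That share is near the background, because 96.1% of all genes were higher relative to Alb and 0.704% were lower, so nothing is read from the count. The median log2 difference relative to Alb was 1.61 for the 10 genes, 0.08 for the 24 hepatocyte markers and 4.89 for all genes. Single hepatocyte markers ranged from -3.75 to 1.75, a range that holds 8 of the 10 acute phase genes, with Saa3 and Orm2 above it. The direction depends on the reference. Relative to Apoa1 or to the mean of the hepatocyte markers the medians were 1.38 and 1.74, against 4.66 and 5.02 for all genes. Of the 10, 8 and 9 were called higher, beside 95.6% and 97.2% of all genes. But relative to Trf, the transferrin gene, the median was -1.35, against 1.93 for all genes. Saa3 alone then kept a positive difference (no gene called out of 16339, 7470 at an unadjusted p under 0.05). Trf, itself also made outside the liver, rose from 265 ± 35 to 2177 ± 868 counts per 1000 Alb counts (SD, n = 5 each).

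**Figure D2:**
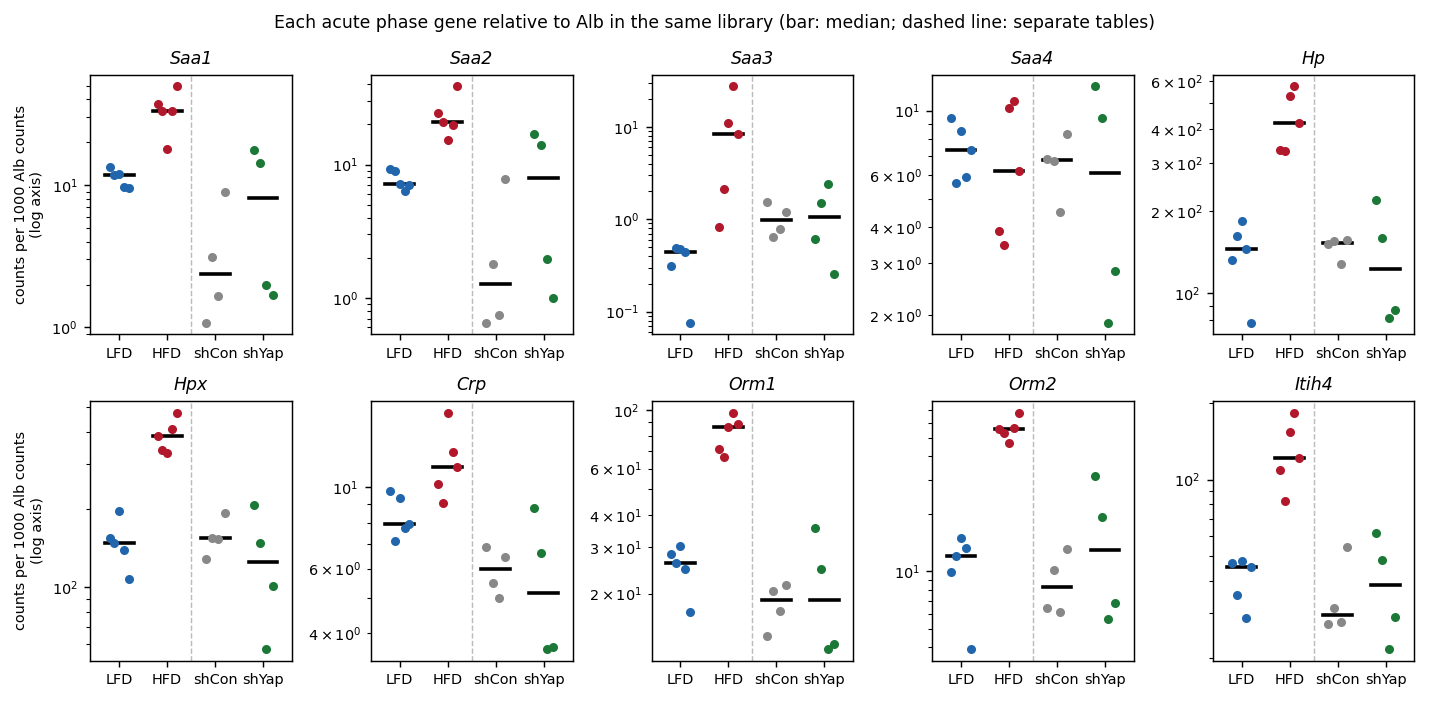
Counts of each gene per 1000 counts of Alb in the same library (log axis), with 1 point per library and a bar at the group's median; the dashed line parts the separately quantified tables. HFD lies above LFD without overlap in 8 of 10 panels, the groups overlap for Saa4 and Crp, and Saa1 and Saa2 spread most in the hairpin groups.

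Saa1 stood at 13.4, 11.7, 11.9, 9.65 and 9.55 counts per 1000 Alb counts in LFD and at 37.2, 33.3, 18, 32.9 and 49.4 in HFD. Its LFD libraries, which spread 7.66-fold in CPM, spread only 1.41-fold in this ratio, and all 5 HFD libraries were higher. The difference was 1.55 ± 0.25 on the log2 scale (SE; exact permutation p = 0.00794, the smallest that 5 against 5 can give; adjusted p = 0.00845). Saa2 rose from 7.71 ± 1.27 to 23.7 ± 8.89 (SD, n = 5 each), a log2 difference of 1.57 ± 0.24 with the same p-values. In limma on the same ratios neither Saa1 nor Saa2 passed (adjusted p = 0.12 and 0.115).

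Hp stood at 133, 162, 184, 145 and 78.1 counts per 1000 Alb counts in LFD and at 335, 332, 529, 573 and 421 in HFD, a log2 difference of 1.66 ± 0.27. Hpx stood at 155, 148, 197, 139 and 107 in LFD and at 385, 338, 332, 411 and 474 in HFD, a log2 difference of 1.39 ± 0.17. Both were separated without overlap, and for Hp the HFD libraries with least Alb, replicates 3 and 4, had the highest ratio. Orm1, at 17 to 30.5 in LFD and 66.3 to 98.1 in HFD (1.71 ± 0.18), and Itih4, at 28.6 to 47.8 and 82.8 to 183 (1.64 ± 0.25), differed by a similar amount. Each of these 4 genes reached the same smallest p (exact permutation p = 0.00794, adjusted p = 0.00845). So did the 93.5% of all genes whose HFD ratios lay above LFD without overlap. In limma on the same ratios Hp, Hpx, Orm1 and Itih4 did not pass (adjusted p = 0.106, 0.175, 0.0896 and 0.105).

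Orm2 rose more, from 9.93, 12.1, 14.9, 13.2 and 3.93 counts per 1000 Alb counts in LFD to 55.9, 53.2, 46.8, 56.6 and 67.8 in HFD (log2 difference 2.50 ± 0.36, adjusted p = 0.00845 in the exact permutation test). Its HFD values were among the tightest of the set, spreading 1.45-fold while its CPM spread 12.8-fold. Saa3 had the largest difference, 4.17 ± 1.03 on the log2 scale with the same p, from 0.314, 0.491, 0.474, 0.441 and 0.0759 in LFD to 0.828, 2.14, 11.1, 27.5 and 8.3 in HFD. That is close to the median of all genes, and the ratio spread 33.2-fold among HFD libraries, where Alb spread 11.3-fold and Saa3 4.29-fold in CPM.

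Crp and Saa4 had the smallest differences relative to Alb of the 10 genes. Crp stood at 9.72, 7.12, 9.3, 7.72 and 7.91 counts per 1000 Alb counts in LFD and at 10.2, 9.04, 15.9, 12.4 and 11.3 in HFD. HFD replicate 2 lay within the LFD range, and the log2 difference of 0.48 ± 0.16 passed (exact permutation p = 0.0238, adjusted p = 0.0248), but not relative to Apoa1 (adjusted p = 0.337) or with the closest HFD pairs summed (0.056). Saa4 stood at 9.45, 5.63, 8.51, 5.92 and 7.3 in LFD and at 3.86, 3.48, 10.2, 10.8 and 6.23 in HFD. The difference of -0.21 ± 0.37 did not pass (exact permutation p = 0.587, adjusted p = 0.59), and HFD replicates 1 and 2 lay below every LFD library while replicates 3 and 4 lay above. Among all genes, ranges relative to Alb did not overlap in 93.5% with HFD higher and in 0.465% with HFD lower, against 8 and 0 of the 10 acute phase genes. When limma was used in place of the permutation test, 2 of the 10, Saa3 and Orm2, stayed called higher, where 95.3% of all genes were. With the closest HFD pairs summed, 8 of the 10 stayed higher in the permutation test, where 93.9% of all genes were.

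**Figure D3:**
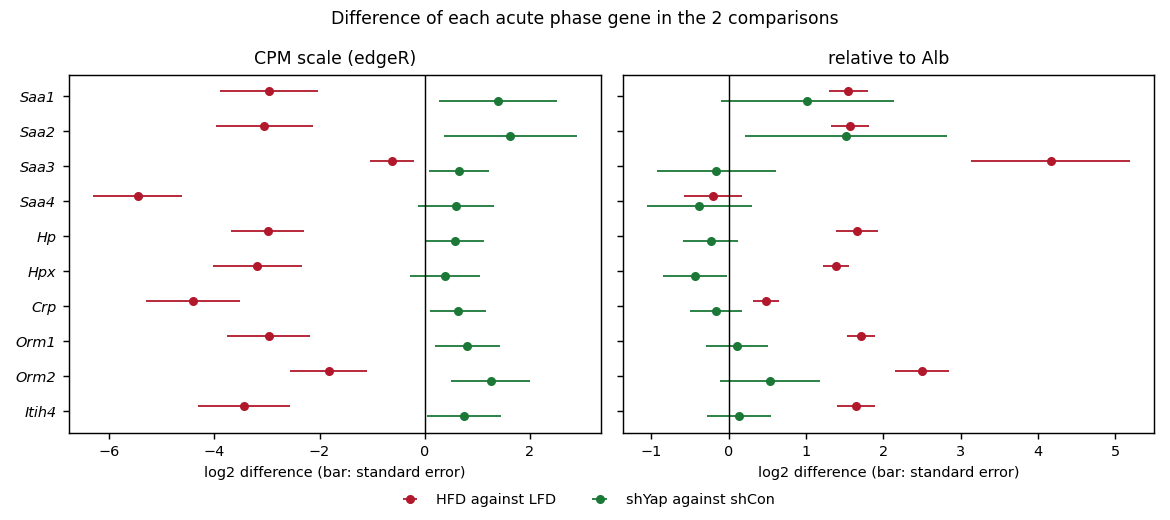
Log2 difference of each gene with its standard error, HFD against LFD in red and shYap against shCon in green, on the CPM scale (left) and relative to Alb (right). On the left the red points lie between -5.46 and -0.63; on the right 9 of them lie above 0, and Saa4 at -0.21.

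The wider acute phase programme showed the same mixture. Of 24 other positive acute phase genes, 16 fell and 2 rose in CPM (median log2 fold change -2.71), beside 21.6% and 19.4% of all genes. Relative to Alb 17 were higher and 3 lower (median 2.27), beside 96.1% and 0.704% of all genes. No rise of the programme is read from the 17. With the closest HFD pairs summed, 11 fell and 1 rose in CPM (12.9% and 12.1% of all genes). In that setting 17 were higher and 2 lower relative to Alb (93.9% and 0.697% of all genes). The fibrinogen chain gene Fgb fell from 2045 to 139 CPM (log2 fold change -3.88 ± 0.85, adjusted p = 0.00581) and Lbp, encoding the lipopolysaccharide binding protein, from 60.1 to 8.37 CPM (-2.84 ± 0.55, adjusted p = 0.00342). Hamp2, a mouse hepcidin gene, ranged from 50.4 to 96.2 CPM in LFD and from 0 to 0.0505 CPM in HFD, and was lower relative to Alb as well, as were Hamp and Serpina1d (Hamp not with those pairs summed, adjusted p = 0.0742). In the table of hairpins Hamp2 averaged 0.928 CPM in shCon and 6.76 CPM in shYap. Its difference between the diets cannot be told apart from the presence of female RNA in LFD. The genes that rose were A2m, at 1 and 4.17 CPM, and Mt2, a metallothionein gene, at 151 and 249 CPM (adjusted p = 0.0496, and 0.129 with those pairs summed). Lcn2, encoding lipocalin 2, stood at 155 ± 48.8 and 90.1 ± 81.4 CPM (SD, n = 5 each) and did not pass (log2 fold change -0.78 ± 0.60, adjusted p = 0.325).

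Of 12 negative acute phase plasma proteins, 11 fell (median log2 fold change -4.13), beside 21.6% of all genes. With the closest HFD pairs summed 10 fell, beside 12.9% of all genes. Of the 11 besides Alb, 6 were higher and 1 lower relative to Alb (median 0.93), beside 96.1% and 0.704% of all genes. The one lower was Serpina6, encoding the corticosteroid binding globulin, at 177 ± 95.7 CPM in LFD and 0.288 ± 0.173 CPM in HFD (SD, n = 5 each; log2 fold change -9.22 ± 0.57, adjusted p = 2.3e-05). Ttr, encoding transthyretin, differed from Alb by -0.51 on the log2 scale, which did not pass (exact permutation p = 0.0556, adjusted p = 0.0572). With the closest HFD pairs summed, Ttr did pass as lower (adjusted p = 0.0377 in the exact permutation test). In that setting 6 were higher and 2 lower relative to Alb, beside 93.9% and 0.697% of all genes.

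**Figure D4:**
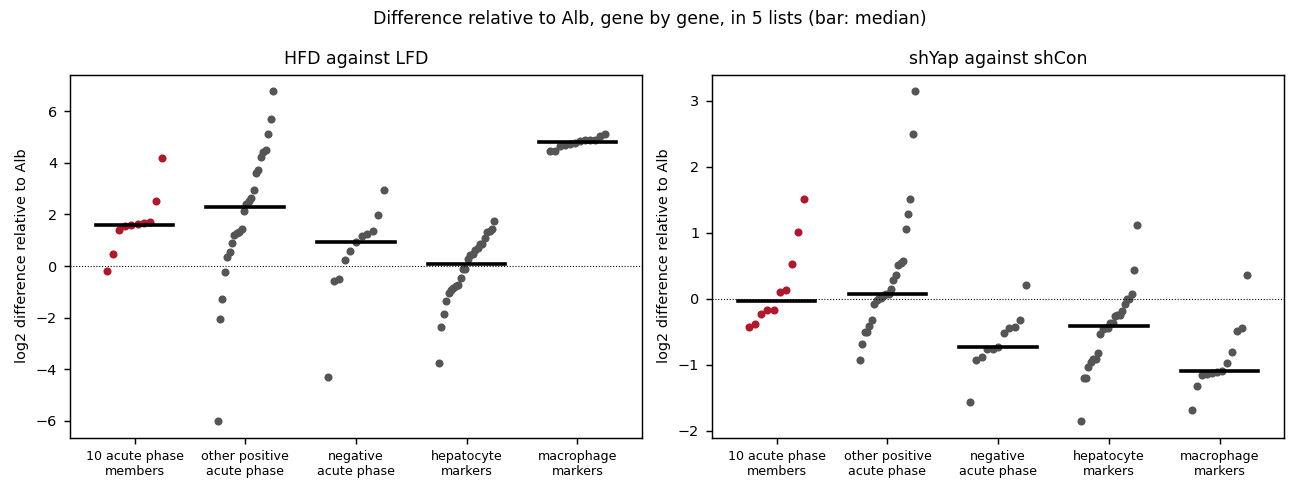
Log2 difference relative to Alb of every tested gene in 5 lists (1 point per gene, bar at the median), HFD against LFD on the left and shYap against shCon on the right, on separate scales. On the left the medians are 1.61 for the 10 acute phase genes, 2.27 for the other positive ones, 0.93 for the negative ones, 0.08 for hepatocyte markers and 4.80 for macrophage markers. On the right no gene passed the test. With 4 against 4 libraries a gene can pass only where a large share of all genes reaches the smallest p.

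Upstream of these genes, of 16 cytokines and receptors tested, 2 rose and 4 fell, with a median log2 fold change of -0.04, beside 19.4% and 21.6% of all genes. With the closest HFD pairs summed, 1 rose and 2 fell, Clcf1 and Lifr among them (adjusted p = 0.00238 and 0.0256). Among all genes 12.1% rose and 12.9% fell in that setting, and nothing is read from the counts of this list. Clcf1, encoding a cytokine of the IL-6 family, rose from 15 ± 1.92 to 32.3 ± 1.21 CPM (SD, n = 5 each; log2 fold change 1.10 ± 0.09, adjusted p = 6.9e-05). Lifr, its family's receptor for LIF, fell from 152 to 22.7 CPM (-2.74 ± 0.50, adjusted p = 0.00259). Il6 was below the filter, at 0.186 CPM in LFD and 0.497 CPM in HFD, and its receptor genes Il6ra and Il6st did not pass (adjusted p = 0.531 and 0.22).

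Of 16 transcription factors and feedback regulators, 1 rose and 7 fell (median log2 fold change -0.54), beside 19.4% and 21.6% of all genes. With the closest HFD pairs summed 1 rose and 5 fell, beside 12.1% and 12.9% of all genes. Stat3 fell from 137 ± 47.5 to 92.8 ± 6.18 CPM (SD, n = 5 each; -0.56 ± 0.20, adjusted p = 0.0465, and 0.158 with those pairs summed), while its feedback target Socs3 did not pass (-0.54 ± 0.39, adjusted p = 0.29). Cebpa fell from 231 to 35.6 CPM (-2.70 ± 0.49, adjusted p = 0.00255), and Cebpb and Cebpd did not pass (adjusted p = 0.23 and 0.851). Rela, the p65 subunit of NF-kB, rose from 114 ± 7.99 to 164 ± 13 CPM (0.53 ± 0.08, adjusted p = 0.000877). Hnf4a, a master regulator of hepatocyte genes, fell from 223 to 14.3 CPM (-3.96 ± 0.89, adjusted p = 0.00669).

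Of 11 genes for receptors that bind these plasma proteins, 4 fell and none rose (median log2 fold change -0.39), also with the closest HFD pairs summed. Among all genes 21.6% fell and 19.4% rose (12.9% and 12.1% with those pairs summed). Scarb1, encoding a receptor for high-density lipoprotein and serum amyloid A, fell from 134 ± 29.3 to 63.3 ± 7.04 CPM (-1.08 ± 0.14, adjusted p = 0.000548), and Fpr2, a formyl peptide receptor that also binds serum amyloid A, fell from 7.46 ± 1.6 to 2.91 ± 0.712 CPM (-1.36 ± 0.22, adjusted p = 0.00124; SD, n = 5 each). Cd163, the receptor of haptoglobin-haemoglobin complexes in human, and Lrp1, that of hemopexin-haem, did not pass (adjusted p = 0.159 and 0.422). Neutrophil markers fell in 7 of 11 tested, with and without those pairs summed (summed level 72 to 137 CPM in LFD and 18.6 to 28.7 CPM in HFD), and the part of these cells in Fpr2 was not tested.

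The other comparison asks how tumours labelled shYap differ from shCon tumours on the same high-fat diet. No acute phase gene passed the test: 0 of 10 were called on the CPM scale, and 0 of 10 at an unadjusted p under 0.05. Among all 16571 genes, 0% were called higher and 0% lower by edgeR's quasi-likelihood test, 1804 had an unadjusted p under 0.05, limma voom called 0 and DESeq2 called 409, none of them among the 10. The median log2 fold change of the 10 genes was 0.70, against 0.03 for all genes, beside 0.46 for hepatocyte markers and 0.76 for the other positive acute phase genes, with 0 called in any list. Relative to Alb, 0 of 10 passed the exact permutation test, as did 0% of all genes in either direction, and the median of the 10 was -0.03 against -0.76 for all genes. The CPM ranges of the groups overlapped for all 10 genes, where 6.57% of all genes had ranges that did not, and relative to Alb 0.0241% of genes were without overlap and higher and 1.64% without overlap and lower.

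Saa1 and Saa2 spread widely between libraries of the same group. In the order of replicates 1 to 4, Saa1 stood at 4.66, 34.7, 16.7 and 173 CPM in shCon tumours and at 201, 319, 16.4 and 61.8 CPM in those labelled shYap. shCon replicate 4 and shYap replicates 1 and 2 were high and the other 5 low, so both labels held high and low libraries. The log2 fold change was 1.39 ± 1.12 (SE; adjusted p = 0.728), and 3.0 (adjusted p = 0.24) without shCon replicate 4. Saa2 stood at 2.8, 19.9, 7.59 and 152 CPM in shCon and at 195, 312, 16.3 and 36.7 CPM in shYap, with the same 3 libraries high (log2 fold change 1.62 ± 1.26, adjusted p = 0.714; 3.79 without shCon replicate 4, adjusted p = 0.184).

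This spread remained after division by Alb. Saa1 stood at 1.08, 3.12, 1.65 and 8.87 counts per 1000 Alb counts in shCon and at 17.5, 14.3, 1.98 and 1.68 in shYap, and Saa2 at 0.652, 1.79, 0.75 and 7.79 and at 16.9, 14, 1.97 and 0.994. The same 3 libraries were high again. The log2 differences of 1.02 ± 1.12 for Saa1 and 1.52 ± 1.31 for Saa2 did not pass (exact permutation p = 0.314 and 0.229; adjusted p = 0.587 for both; 4 against 4 cannot go below 0.0286). Within shCon the SD of the log2 ratio to Alb was 1.32 for Saa1 and 1.64 for Saa2, against 0.14 for Hp at the lowest and 0.57 for Saa3 at the highest of the other 8 genes. Within shYap it was 1.81 for Saa1 and 2.04 for Saa2, against 1.43 for Saa3, 1.31 for Saa4, 1.19 for Orm2 and 0.63 to 0.79 for the other 5. The 2 high libraries labelled shYap also had the highest ratios of their group for Hp, Hpx, Crp, Orm1, Orm2, Itih4 and Saa4.

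**Figure D5:**
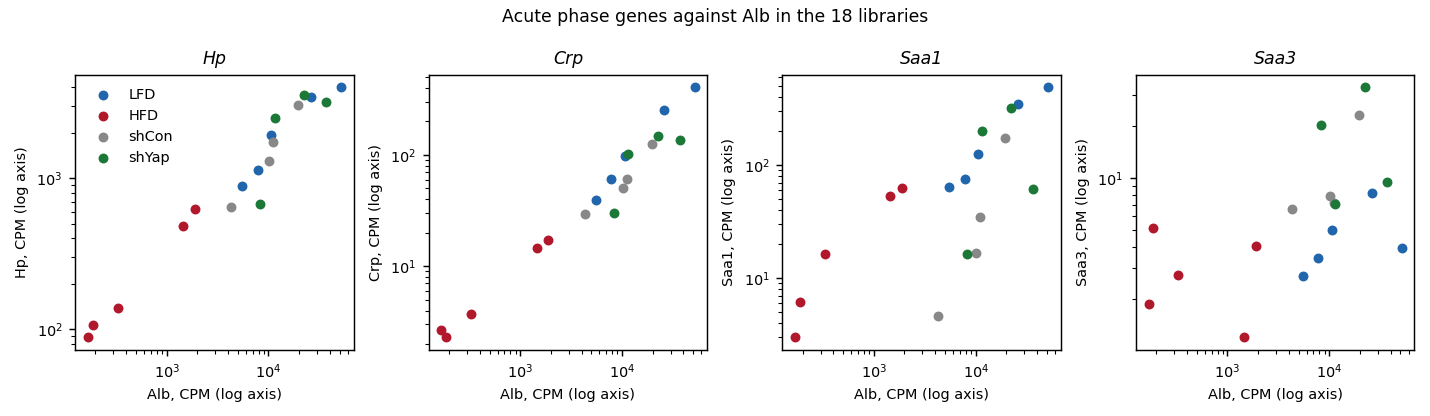
CPM of Hp, Crp, Saa1 and Saa3 against CPM of Alb in the 18 libraries, both on log axes, coloured by group. Hp and Crp rise with Alb across all groups, Saa1 does so in LFD and HFD but ranges from 16.7 to 319 CPM among the 6 shCon and shYap libraries between 10124 and 36887 CPM of Alb, and Saa3 follows Alb least.

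Hp and Hpx varied less relative to Alb than in CPM within shCon and within shYap. Hp stood at 650, 1728, 1295 and 3060 CPM in shCon and at 2522, 3558, 674 and 3207 CPM in shYap, or at 151, 155, 128 and 157 and at 219, 159, 81.4 and 86.9 counts per 1000 Alb counts. The shCon ratios lay within a narrow band, and shYap replicates lay on both sides of it. The differences of 0.57 ± 0.56 in CPM (adjusted p = 0.789) and -0.23 relative to Alb (exact permutation p = 0.457, adjusted p = 0.593), both on the log2 scale, did not pass. Hpx, at 1899 ± 1350 and 2475 ± 1450 CPM (SD, n = 4 each), had log2 differences of 0.38 ± 0.67 in CPM (adjusted p = 0.891) and -0.43 relative to Alb (adjusted p = 0.59 in the exact permutation test).

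Orm2 stood at 27.8, 113, 62.5 and 255 CPM in shCon and at 363, 428, 46.6 and 253 CPM in shYap. shYap replicates 1 and 2 were the highest of the 8, and shCon replicate 1 the lowest. Its log2 fold change of 1.25 ± 0.76 did not pass (adjusted p = 0.621), nor did that of Orm1, 0.81 ± 0.62, between means of 220 and 385 CPM (adjusted p = 0.711). Itih4 differed by 0.75 ± 0.70, Crp by 0.63 ± 0.54, Saa4 by 0.59 ± 0.73 and Saa3 by 0.65 ± 0.57 on the log2 scale of CPM, with adjusted p between 0.744 and 0.839. Saa3 stood at 6.61, 7.15, 7.87 and 23.1 CPM in shCon and at 7.1, 33.5, 20.1 and 9.52 CPM in shYap, again with shCon replicate 4 the highest of its group.

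Among the genes of the wider programme, the smallest p in the hairpin table belonged to Mt2, at 52.7 CPM in shCon and 286 CPM in shYap, Tlr2, a receptor of bacterial lipoproteins that also binds serum amyloid A, at 38.9 and 21.4 CPM, Mt1, at 33.3 and 153 CPM, and Osmr, the receptor of oncostatin M, at 19.7 and 32.5 CPM. Their log2 fold changes of 2.44 ± 0.44, -0.86 ± 0.18, 2.20 ± 0.45 and 0.72 ± 0.16 did not pass after adjustment (adjusted p = 0.153 for Mt2 and 0.158 for the others). Serpina3n, Lcn2 and Cebpd had log2 fold changes of 1.40 ± 0.50, 1.40 ± 0.69 and 1.70 ± 0.67 (adjusted p = 0.358, 0.525 and 0.408). Il6 was below the filter in this table too, at 0.286 and 0.362 CPM.

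Per kilobase of transcript, which allows genes to be ranked within a group, LFD tumours held 1807 ± 1346 CPM of Hpx, 1703 ± 1035 of Hp, 587 ± 428 of Orm1, 363 ± 312 of Saa1, 301 ± 303 of Itih4, 256 ± 232 of Saa2, 203 ± 98.9 of Orm2, 101 ± 92.1 of Crp, 75.4 ± 71 of Saa4 and 8.38 ± 3.86 of Saa3 (SD, n = 5). Apart from the steps from Hp to Orm1 and from Orm2 to Crp, neighbours in this order differed by less than the larger of their SDs. In HFD the order began with Hp at 215 ± 185, Hpx at 198 ± 186, Orm1 at 74.9 ± 67.2 and Orm2 at 57.3 ± 55.6 CPM per kilobase and ended with Saa3 at 5.39 ± 2.88, Crp at 4.78 ± 4.24 and Saa4 at 1.71 ± 1.1. Saa3 was the lowest of the 10 in LFD, shCon and shYap, and Saa4 the lowest in HFD.

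Over all 4 groups, the 10 genes took 0.242% to 0.997% of the counts of a library in LFD, 0.0224% to 0.193% in HFD, 0.155% to 0.891% in shCon and 0.161% to 0.965% in shYap. The HFD tumours of the table of diets and the shCon tumours share a high-fat diet but were quantified in separate tables, so their ratios to Alb are set side by side without a test. Saa1 stood at 34.1 ± 11.2 counts per 1000 Alb counts in HFD (SD, n = 5) and at 3.68 ± 3.57 in shCon (n = 4), Hp at 438 ± 110 and 148 ± 13.6, and Orm1 at 82.2 ± 13.1 and 18.2 ± 3.53. Crp stood at 11.8 ± 2.63 and 5.95 ± 0.853, and Saa4 at 6.91 ± 3.44 and 6.6 ± 1.58. Alb itself, the denominator, stood at 804 ± 806 CPM in HFD and at 11254 ± 6247 CPM in shCon. The ratios of all genes were not compared between these groups, so nothing is read from the differences.

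The genes most alike to each member, by Pearson's r of log2 CPM centred on group means, are given for each table as a description. Over the 10 libraries of the table of diets, Saa1 was most like Saa2 (r = 0.99), Hp like Apoc4 (0.997), Hpx like Apoa1 (0.999), Crp like Aadac (0.999), Itih4 like Pzp (0.999), Saa4 like Glyctk (0.998) and Orm1 like Apof (0.998). Orm2 was most like Lcn2 (r = 0.99) and the Kupffer cell marker Clec4f (0.983), and Saa3, under 5 CPM in this table, was not compared. Over the 8 libraries of the hairpin table, Saa1 was most like 1810008I18Rik (0.996) and Saa2 (0.988), and Saa3 like Kat2b (0.976) and the immunoglobulin genes Ighg2b and Ighg2c (0.974 and 0.966). In that table r with Alb was 0.671 for Saa1, 0.586 for Saa2 and 0.321 for Saa3, against 0.874 for Hp and Orm1 and 0.901 for Hpx. These values come from the same few libraries and share their depth and tissue makeup, and no test was made on them.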

How the data were processed

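Total RNA of liver tumours was sequenced in 18 libraries. The authors deposited estimated counts per gene in a table of diets and a table of hairpins, with 59.7% and 61.8% of values whole; the expectation-maximisation quantification of Partek is named per the labels, and STAR 2.7.3a, Partek, DESeq2, GRCm38 and mm10 are named per the submitters' processing notes. The counting annotation and library strand are not given in the sources used here. Each library held 17207214 to 21309950 counts, and no molecular identifiers are named, so counting errors may be understated.

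Counts were rounded and each table was fitted alone with edgeR 4.0.16 in R 4.3.3 (low counts removed with filterByExpr, scaling by TMM, quasi-likelihood test with robust dispersions, Benjamini-Hochberg adjusted p under 0.05); 16340 and 16571 genes were tested. CPM use TMM-scaled library sizes, and CPM per kilobase the first GENCODE M21 transcript. Standard errors were derived from each fold change and its F statistic. For values relative to Alb, the mean of log2((gene + 0.5)/(Alb + 0.5)) was compared by a 2-sided exact permutation test over libraries. It used 252 or 70 regroupings and was adjusted over all genes. The SE beside it came from the separate variances of the 2 groups. Promoters are RefSeq's (GRCm38.p6), with an entry for 8 of the 10 genes. The tests were tried on simulated data.

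The 10 genes and the 13 other lists were chosen with earlier results of these data known. Named are all 10 genes, Alb, up to 4 genes of each list by smallest p in each comparison, pathway genes that a sentence needs, and the 3 genes of at least 5 CPM most alike to each member. Orm3, Xist, Yap1 and Epcam were chosen after their values were seen, as were Lcn2, Fgb, Lbp, Ttr, Mt2, A2m and Serpina3n where the ranking by p did not name them. Alternatives were DESeq2 1.42.0, limma 3.58.1 (voom, and on the ratios), other scalings, filters, pseudocounts of 1 and 3 and reference genes, a hepatocyte covariate, the replicate number as a block, summed HFD pairs and each library left out.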

Additional observations from a re-analysis of the deposited data

Results flagged for a closer look

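Over all 4 labels, 84 groups of 4 or 5 values were examined and 4 were flagged, where chance alone flags about 1 in 20. That number is near the chance rate. Values within 1 library are not independent, and all 4 flags fell on replicate 4 of shCon. Its gap to the next library, relative to the group's range, exceeded Dixon's critical value for Saa2 at 152 CPM, where the next was 19.9 CPM, and for Saa3 at 23.1 CPM, where the next was 7.87 CPM. Relative to Alb it did so for Saa2, at 7.79 counts per 1000 Alb counts against 1.79, and for Itih4, at 54.3 against 31.3. The same library had the most Alb of its group, 19468 CPM. Without it, 94 genes were called between shYap and shCon, none of them among the 10 acute phase genes.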

How the results depend on the processing

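Between HFD and LFD, 6710 genes were called (3178 higher, 3532 lower). The count moved to 751 with the hepatocyte level as a covariate and to 4233 with the HFD pairs summed, and ranged from 5523 to 7253 with 1 library left out. With library totals free of Alb and hepatocyte genes the split was 3945 higher and 2345 lower, the median of all genes shifted to 0.20, and 8 of the 10 acute phase genes stayed lower (median -2.67). Relative to Alb 15824 genes were called, and 0 with Trf as the reference; leaving out 1 library gave 15826 to 16121 and changed no call of the 10. Between shYap and shCon 0 genes were called, against 409 in DESeq2, 1 with the hepatocyte covariate and 0 to 94 with 1 library left out (94 without shCon replicate 4, 1 without shYap replicate 4). Relative to Alb it was 0, against 8 in limma. The hepatocyte covariate turned the log2 difference to 2.45 for Saa1, 1.76 for Hpx, 0.89 for Crp, 1.72 for Orm1 and 2.11 for Itih4. Without a call, the log2 difference turned to 2.24 for Saa2, 1.09 for Hp and 2.16 for Orm2. Trf as the reference turned it to -1.41 for Saa1, -1.39 for Saa2, -1.30 for Hp, -1.57 for Hpx, -2.48 for Crp, -1.25 for Orm1, -0.46 for Orm2 and -1.32 for Itih4; the cause of these turns was not tested. Replicate numbers did not pair the libraries (r of same-numbered deviations from -0.62 to 0.47 for the diets and from -0.10 to 0.27 for the hairpins); with the replicate block the counts in edgeR were 4929 and, for the hairpins, 0. Relative to Alb the block was run in limma, so that test and block changed together, and gave 15562 and, for the hairpins, 563; 2 of the 10 genes were then called higher in HFD, as in limma without the block (15627). Counts as low as those of Saa3, and 4 libraries a group, limit what could be detected.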

Other observations

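Orm3, the remaining orosomucoid gene of the cluster on chromosome 4, is identical to Orm1 at 86.5% and to Orm2 at 88.5% of aligned bases. It was a minor transcript, at 4.62 ± 1.85 CPM in LFD and 0.301 ± 0.372 CPM in HFD (SD, n = 5 each; log2 fold change -3.91 ± 0.60, adjusted p = 0.00108), and 2.13 ± 0.309 and 2.2 ± 1.24 CPM in shCon and shYap (n = 4 each). Relative to Alb it did not differ beyond the spread between libraries in HFD against LFD (exact permutation p = 0.429, adjusted p = 0.431). By contrast Orm1 and Orm2 were called higher relative to Alb, as were 96.1% of all genes. Orm1 did not pass in limma (adjusted p = 0.0896). Orm3 held only 3, 19, 1, 3 and 4 counts in HFD replicates 1 to 5, which limits this contrast.

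Saa2 made up 37.4% to 43.2% of the summed counts of Saa1 and Saa2 in LFD and 37.4% to 45.9% in HFD, and these ranges overlap. In the hairpin table the share ranged from 31.2% to 46.7% in shCon and from 37.2% to 49.8% in shYap, with overlapping ranges.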
